A study of Mus musculus with 12 samples.

Results

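The set comprised 39 genes that mark fibroblasts, mural cells and endothelium, the connective and vascular cells that can persist in glial cultures. It was a list of symbols, each matched to a mouse Ensembl gene. The rule used no expression value, but the list was chosen with earlier results of these data known. The 39 genes fell into 18 matrix genes, 11 mural and contractile genes and 10 endothelial genes, out of 55573 genes in the count table. Of these, 29 passed the filter on low counts, as did 16761 genes in all, and the other 10 are given by their counts.

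RNA came from cortical cultures of C57BL6/J mouse pups aged 0 to 2 days, grown in serum and shaken to remove other glia so that astrocytes were enriched. All cultures carried a lentivirus for 5 days. They fell into 4 groups of 3 libraries: pCIG3-ACREB with VIP, pCIG3-ACREB with PBS, the control virus pCIG3 with VIP, and the control virus with PBS. VIP (vasoactive intestinal peptide, 0.5 µM) or PBS was applied for 30 min and followed by 90 min of recovery. ACREB is a dominant-negative protein that blocks DNA binding by CREB, the transcription factor activated by cAMP, and the pCIG3 backbone encodes GFP behind a CMV promoter. The virus was added to whole cultures, so which cells carried it is not resolved. The libraries of each group are numbered 1 to 3, and no label says whether a number stands for a culture, a litter or a day. The spread that enters the p-values is thus that among the samples as labelled, and part of it may be technical.

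Fibroblasts secrete fibrillar collagens, which lysyl oxidases cross-link and which associate with microfibrils of fibrillin and with fibronectin. Mural cells, that is pericytes and smooth muscle, wrap vessels, depend on platelet-derived growth factor acting on the receptor Pdgfrb, and in their contractile form express smooth muscle actin and its partners. Endothelial cells line vessels, hold together through Cdh5 and Cldn5, and respond to VEGF through Kdr and Flt1. Many of these genes are not restricted to their namesake cells, and cultured astrocytes can themselves express matrix and cytoskeletal genes.

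Each library held 16571398 to 20529238 counts. Levels are given in CPM, counts scaled to TMM-adjusted library sizes, where 3 counts correspond to 0.15 to 0.18 CPM. Summed astrocyte markers ranged from 6752 to 7839 CPM over the 12 libraries, and summed microglia markers ranged from 1318 to 3457 CPM. Control PBS library 2 stood apart: GC content and gene length accounted for 42.6% of the variance in how far its genes lay from their means. The value was 18.6% for ACREB PBS library 2 and 0.502% to 15.8% for the other 10. In bulk RNA, fewer cells of a type and less RNA per cell cannot be told apart.

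The matrix genes were led by Fn1, fibronectin, with a mean of 1899 CPM over the 12 libraries and rank 21 among all genes by CPM. The basement membrane chains Col4a1 and Col4a2 had 348 and 110 CPM. Per kilobase of exon, which allows levels of different genes to be compared, Fn1 had 163 CPM per kb, Col4a1 46.6 and Col4a2 16.6. The fibrillar chains were lower: Col5a1 had 12.6 CPM per kb, Col1a1 8.64, Col1a2 4.34 and Col3a1 2.01. Fbn1, fibrillin-1, had 7.53 CPM per kb, and the cross-linking enzymes Loxl1 and Lox had 12 and 3.07. The microfibrillar collagen chains Col6a1 and Col6a2 had 9.47 and 1.39 CPM per kb, the protease Mmp2 2.81, and the matrix proteins Fbln2, Fbln1 and Postn 2.62, 1.29 and 1.25. The small proteoglycans Dcn and Lum, standard fibroblast markers, were the lowest of the 18, at 0.263 and 0.222 CPM per kb. Dcn had 340 counts and Lum 121 counts over all libraries together. Of 32 further fibroblast and meningeal genes, 28 passed the filter and 7 averaged under 1 CPM. Col5a2 averaged 657 CPM, Col12a1 434, Fmod 229 and Bgn 126. Igf2, S100a4, Aspn and Slc6a13 averaged 0.0490, 0.0225, 0.0175 and 0.00442 CPM.

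Some contractile genes were among the most abundant transcripts of the cultures. Acta2, smooth muscle alpha-actin (ENSMUSG00000035783, chromosome 19, 34241090 to 34255590, GRCm38), averaged 2149 CPM, rank 17 among all genes. Tagln, an actin-binding protein of smooth muscle, averaged 1820 CPM, rank 23. Per kilobase, Acta2 had 978 CPM, Tagln 916, Myl9, a myosin regulatory light chain, 248, and Cnn1, calponin, 117. Tagln is uncertain as a level, because 1349 of its 1988 exonic bases lie opposite exons of Gm48529 and Pcsk7, at 110 and 32.9 CPM. The libraries were strand-specific, and the strand setting of the counter is not given in the sources used here. The pericyte genes were far lower than the contractile genes named above. Pdgfrb had 5.26 CPM per kb and Rgs5, a regulator of G-protein signalling, 0.596, while Anpep, a membrane peptidase, had 0.113. The potassium channel subunits Kcnj8 and Abcc9, which define brain pericytes, had 26 and 11 counts in all 12 libraries together, with 0 counts in 2 and 5 libraries. Vtn had 54 counts and Des, the muscle intermediate filament, 17.

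The endothelial list split into 2 sets. Pecam1, the adhesion molecule that defines endothelium (ENSMUSG00000020717, chromosome 11, 106654217 to 106750628), had 65 counts over the 12 libraries and 0 counts in 1 of them. The tight junction gene Cldn5 had 0 counts in all 12. Cdh5, Esam, Tek and Tie1, the junction and angiopoietin receptor genes of endothelium, had 73, 71, 29 and 5 counts. Egfl7, an endothelial secreted factor, passed the filter at 0.591 CPM. In contrast, the VEGF receptors and von Willebrand factor were plainly detected: Kdr averaged 25.8 CPM, Flt1 10.9 and Vwf 6.95. Of 21 further endothelial genes, 13 passed the filter and 11 averaged under 1 CPM. Sox17 and Gpihbp1 had 0 CPM in all 12 libraries and the mucin Emcn averaged 0.0395 CPM, whereas the transporters Slco1a4 and Mfsd2a averaged 293 and 129 CPM, Podxl 112, Angpt1 70.3 and Cd34 64.0. Of 30 further contractile and mural genes, 25 passed and 8 averaged under 1 CPM. Higd1b had 0 CPM throughout, whereas Mcam averaged 95.8 CPM, Notch3 83.3 and Cspg4, which also marks oligodendrocyte precursors, 48.3. Of the contractile genes in this list, Myh11, Actg2, Acta1 and Myocd averaged 0.707, 0.765, 0.993 and 0.0817 CPM. Others were higher, among them Synpo2 at 79.8 CPM and Smtn at 22.7 CPM. Both vascular lists were thus mixed. The genes that define endothelium and brain pericytes most narrowly, among them Pecam1, Cdh5, Cldn5, Kcnj8 and Abcc9, were at or near 0. Contractile genes such as Myh11 and Myocd averaged under 1 CPM. Other genes of the same lists were well detected. Kdr, Flt1, Vwf and Pdgfrb are therefore called here by their symbols and not by a cell type. Likewise, Acta2, Tagln, Myl9 and Cnn1 are called contractile genes and are not taken to mark smooth muscle cells.

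**Figure D1:**
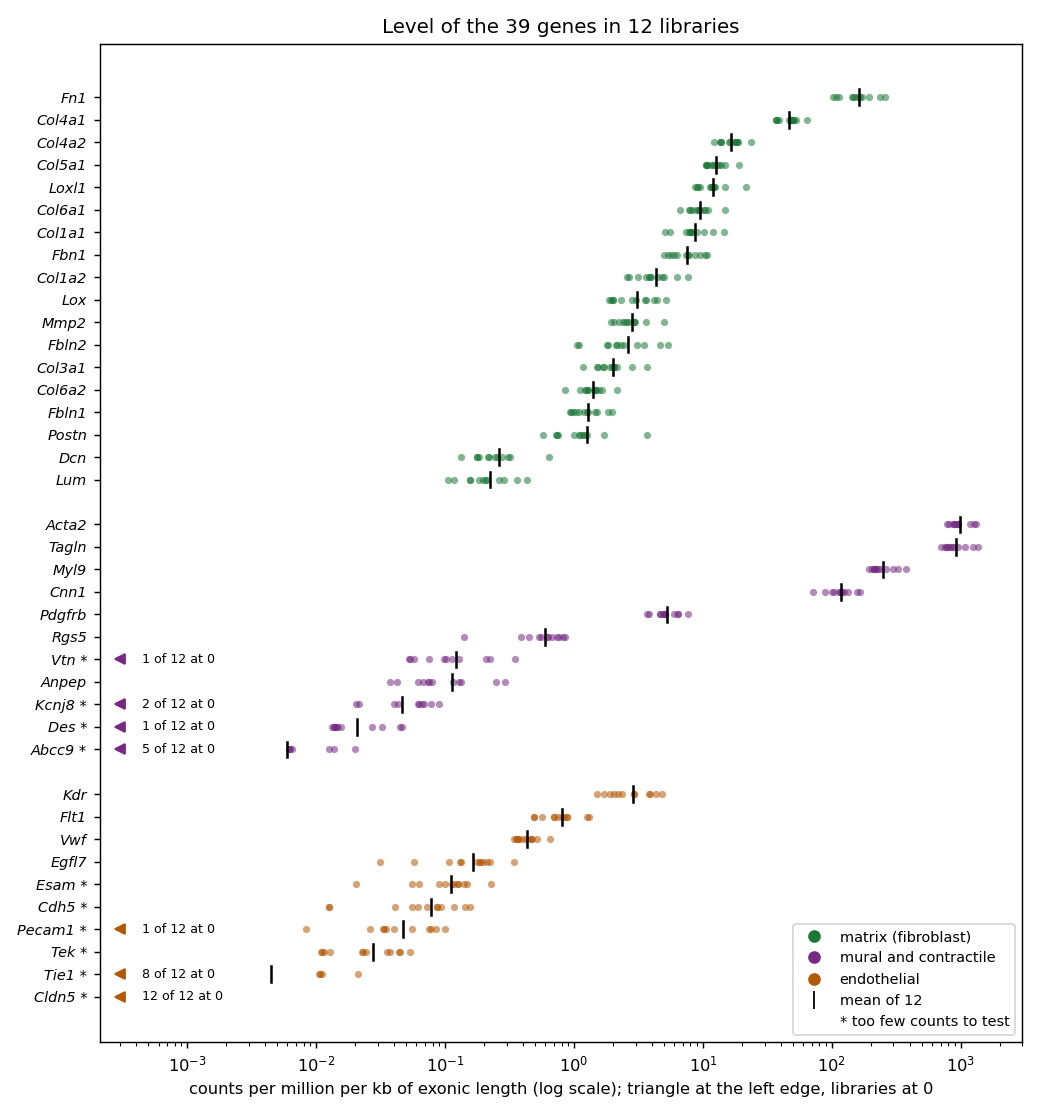
Mean level of each of the 39 genes in CPM per kilobase of exon (log axis), with a point for each of the 12 libraries, grouped into matrix, mural and contractile, and endothelial genes. Acta2 and Tagln lie near 978 and 916 CPM per kb, while Cldn5 has 0 counts and Esam, Cdh5, Pecam1, Tek and Tie1 lie at 0.111 or below.

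Promoter sequence is shown for 3 of these genes: Flt1 and Kdr because both VEGF receptors varied while Pecam1, Cdh5 and Cldn5 were at or near 0, and Myl9 for the contractile genes. They are RefSeq windows of GRCm38.p6, read 5′ to 3′ on the gene's strand and ending just before the start annotated by GENCODE. That start lies 44 bases upstream of the RefSeq start for Myl9 and 3 bases upstream for Kdr, and is the same for Flt1. The Flt1 window is chr5:147726012-147726112 (minus strand), the Kdr window chr5:75978459-75978556 (minus strand) and the Myl9 window chr2:156775283-156775419 (plus strand). Capitals mark TGACGTCA, the cAMP response element that CREB binds, TATAAA, and the CArG box, the site of serum response factor.
Flt1: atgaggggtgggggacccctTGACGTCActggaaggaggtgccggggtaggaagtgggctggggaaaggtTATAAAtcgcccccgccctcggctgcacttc
Kdr: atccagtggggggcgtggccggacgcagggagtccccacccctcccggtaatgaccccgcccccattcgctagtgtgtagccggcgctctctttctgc
Myl9: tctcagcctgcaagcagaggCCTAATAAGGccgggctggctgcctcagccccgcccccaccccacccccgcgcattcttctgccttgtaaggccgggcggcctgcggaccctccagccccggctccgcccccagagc

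A window was given for 26 of the 39 genes, and the 250 bases before the RefSeq start were searched on both strands. TGACGTCA was found in Flt1, 81 to 74 bases before the start, and in none of the other 25, against 1.91% of the windows of 20584 genes. Its shorter form TGACG, which TGACGTCA contains, was found in Flt1 and Kcnj8, against 19.6% of all windows. TATAAA was found in Flt1, Col3a1, Postn and Vtn, against 12.2% of all windows. The CArG box was found in Myl9, against 1.34% of all windows. With any base allowed at its position 3, it was also found in Acta2 and Fbln2, against 2.95% of all windows. These matches describe letters in a window and not a bound site.

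The first comparison was ACREB against the control virus, which asks what blocking CREB does to these genes. Fbn1 was higher and Lox lower with ACREB in every numbered pair, and the remaining matrix genes mostly had lower fitted values with ACREB, among them the collagen I chains, Col5a1, Loxl1 and Fbln2. With each treatment taken alone, no member passed the threshold, an adjusted p of 0.05 over all 16761 genes. With edgeR's quasi-likelihood test, 0 of 29 tested members were called with VIP (0.0537% of all genes) and 0 of 29 with PBS (0.0358% of all genes). At an unadjusted p under 0.05, 1 member was higher and 3 lower with VIP (5.69% of all genes in either direction), and 1 was higher and 5 lower with PBS (5.3% of all genes). DESeq2 called 1 member in each, Lox with VIP (0.69% of the genes it gave an adjusted p) and Fbn1 with PBS (0.514%).

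Fbn1 encodes fibrillin-1, the core protein of extracellular microfibrils (ENSMUSG00000027204, chromosome 2, 125300594 to 125507993). It had 116, 129 and 95.1 CPM in ACREB VIP libraries, 104, 127 and 92.1 CPM in ACREB PBS libraries, 72.7, 88.9 and 65.1 CPM in control VIP libraries, and 68.3, 75.7 and 61.0 CPM in control PBS libraries. All 6 ACREB libraries lay above all 6 control libraries, as they did for 0.811% of all genes. The log2 fold change for ACREB over control was 0.59 ± 0.16 with VIP (SE, adjusted p = 0.400) and 0.66 ± 0.16 with PBS (adjusted p = 0.304). With the replicate number as a block the adjusted p was 0.0186 with VIP and 0.0188 with PBS, where 0.364% and 0.221% of all genes were called. Of its 12128 exonic bases, 2442 lie opposite Gm9913, which had 0.893 CPM.

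Averaging the ACREB effect over both treatments, a contrast chosen after the values of these genes had been seen, called 2 of 29 members, Fbn1 and Lox, against 0.674% of all genes. Fbn1 averaged 111 ± 15.9 CPM with ACREB and 72.0 ± 9.83 CPM with control virus (SD, n = 6 each). Its averaged log2 fold change was 0.62 ± 0.12 (SE, edgeR adjusted p = 0.0325), higher in 6 of 6 numbered pairs (8.44% of all genes). The call was lost in 8 of the 12 fits that left out 1 library, with adjusted p from 0.0632 to 0.114, while the fold change stayed between 0.55 and 0.63 in those 8.

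Lox encodes lysyl oxidase, which cross-links collagen and elastin (ENSMUSG00000024529, chromosome 18, 52516067 to 52529867). It had 9.66, 9.32 and 11.1 CPM in ACREB VIP libraries, 9.54, 8.95 and 13.4 CPM in ACREB PBS libraries, 21.0, 24.9 and 16.8 CPM in control VIP libraries, and 20.0, 14.4 and 17.2 CPM in control PBS libraries. Again the 6 ACREB libraries did not overlap the 6 control libraries, and lay below them, as for 1.14% of all genes; 7.77% of all genes were lower in all 6 numbered pairs. The means were 10.3 ± 1.67 CPM with ACREB and 19.1 ± 3.71 CPM with control virus (SD, n = 6 each), and the averaged log2 fold change was -0.88 ± 0.14 (SE, adjusted p = 0.0145). Separately it was -1.06 ± 0.20 with VIP (adjusted p = 0.103) and -0.69 ± 0.20 with PBS (adjusted p = 0.414). The averaged call was lost without ACREB PBS library 1 (adjusted p = 0.0544) and without ACREB VIP library 2 (adjusted p = 0.0559). The VIP contrast passed without control PBS library 2 (adjusted p = 0.0454). Lox and Fbn1 were the members whose spread was most tied to the virus, which held 78.3% and 74.2% of the variance of their log2 levels, against a median of 5.72% over all genes.

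With the replicate number as a block, the averaged contrast called 9 of 29 members, 3 higher and 6 lower, where 3.45% of all genes were called. With offsets for GC content and gene length added to the block, 7 members were called with VIP (3.5% of all genes), 9 with PBS (1.83%) and 11 in the averaged contrast (9.81%). Of the 9 called by the block alone, the 7 beyond Fbn1 and Lox had adjusted p from 0.148 to 0.579 without the block. Fbln2, a fibulin that binds elastic fibres and basement membranes, had 6.96, 11.4 and 15.6 CPM in ACREB VIP libraries, 6.76, 11.6 and 13.6 CPM in ACREB PBS libraries, 13.6, 29.8 and 22.3 CPM in control VIP libraries, and 14.9, 34.0 and 19.6 CPM in control PBS libraries. Each ACREB library was lower than the control library of its number, and the groups overlapped with VIP and not with PBS. Its averaged log2 fold change was -1.02 ± 0.28 (SE, adjusted p = 0.148, and 0.00508 with the block).

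The collagen I chains were lower with ACREB in every numbered pair. Col1a1 had 33.4, 51.4 and 53.4 CPM in ACREB VIP libraries, 36.7, 48.2 and 51.7 CPM in ACREB PBS libraries, 59.3, 78.0 and 66.3 CPM in control VIP libraries, and 52.6, 95.0 and 54.1 CPM in control PBS libraries. Its log2 fold change was -0.56 ± 0.25 with PBS (SE, adjusted p = 0.912), but -0.23 without control PBS library 2, so that 1 library carries much of it. With VIP, where that library is in neither group compared, it was -0.56, which did not pass, and -0.68 to -0.37 over all fits. Averaged over treatments it was -0.56 ± 0.17 (adjusted p = 0.233, and 0.0248 with the block). Col1a2, its partner chain, averaged 44.4 ± 9.55 CPM with ACREB and 63.4 ± 20.9 CPM with control virus (SD, n = 6 each; block adjusted p = 0.0194). Col5a1, which nucleates collagen I fibrils, averaged 93.6 ± 5.42 CPM with ACREB and 121 ± 21.0 CPM with control virus (block adjusted p = 0.0217). Loxl1, the lysyl oxidase of elastic fibres, averaged 33.0 ± 4.94 CPM with ACREB and 46.1 ± 13.1 CPM with control virus (block adjusted p = 0.0143). Control PBS library 2 was the highest of the 12 for Col1a2, Col5a1 and Loxl1, at 95.3, 161 and 71.5 CPM. Their averaged log2 fold changes were -0.51, -0.37 and -0.47, and came as near to 0 as -0.33, -0.27 and -0.31 in other fits.

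Fn1 and Flt1 were the other 2 genes called higher with the block. Fn1 had 1941, 2765 and 1877 CPM in ACREB VIP libraries, 1681, 3008 and 1759 CPM in ACREB PBS libraries, 1705, 2001 and 1320 CPM in control VIP libraries, and 1263, 2269 and 1198 CPM in control PBS libraries. The groups overlapped, since library 2 of each group was the highest of its group, but each ACREB library exceeded its numbered partner. The averaged log2 fold change of Fn1 was 0.42 ± 0.21 (SE, adjusted p = 0.579, and 0.0200 with the block). Flt1 had 10.2, 11.8 and 17.0 CPM in ACREB VIP libraries, 9.44, 12 and 17.5 CPM in ACREB PBS libraries, 6.60, 9.44 and 11.4 CPM in control VIP libraries, and 6.60, 7.59 and 10.9 CPM in control PBS libraries. It was higher in 6 of 6 pairs, with an averaged log2 fold change of 0.57 ± 0.21 (adjusted p = 0.336, and 0.00606 with the block). Kdr, the other VEGF receptor, had 0.03 ± 0.31 in the same contrast (adjusted p = 0.997, and 0.782 with the block).

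**Figure D2:**
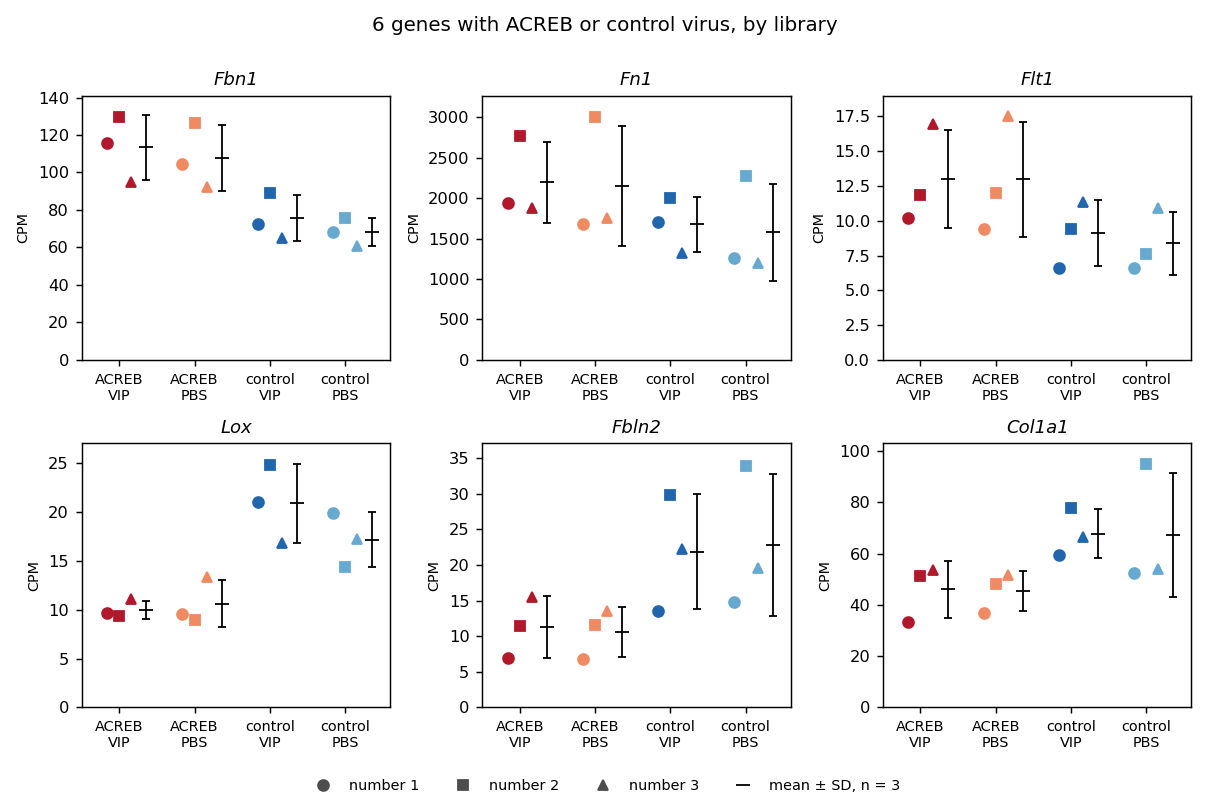
CPM of Fbn1, Fn1, Flt1, Lox, Fbln2 and Col1a1 in each library, by group (ACREB VIP, ACREB PBS, control VIP, control PBS); points are libraries marked by their number and bars are group means with SD (n = 3). Fbn1 is 92.1 to 129 CPM in ACREB libraries and 61.0 to 88.9 CPM in control libraries, and Lox is 8.95 to 13.4 CPM in ACREB libraries and 14.4 to 24.9 CPM in control libraries.

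Over the 18 matrix genes, the median log2 fold change for ACREB was -0.24 with VIP and -0.36 with PBS, against 0.00 and 0.01 over all genes. Fitted values were lower for 15 of 18 genes with VIP and for 14 of 18 with PBS, against 8309 and 8180 of all 16761 genes. All 3 numbered pairs were lower for 12 matrix genes with VIP and 7 with PBS, and higher for 2 and 4. Over all genes, 3612 and 3373 were lower and 3717 and 3477 higher in all 3. With PBS, Col1a1 differed on log2(CPM + 2) by -0.50, -0.95 and -0.06 in numbers 1, 2 and 3. Control PBS library 2, which stood apart, enters the PBS median, and its part was not tested. The 7 mural and contractile genes tested had medians of 0.07 with VIP and -0.09 with PBS. With VIP, libraries did not overlap for 1 matrix gene higher, Fbn1, and 4 lower, Col1a1, Col5a1, Col6a2 and Lox (6.97% and 7.06% of all genes). With PBS the count was 1 matrix gene higher and 4 lower (4.34% and 4.44% of all genes), with Fbln2 in place of Col6a2. Among mural genes Cnn1 did not overlap with VIP, at 327 to 449 CPM in ACREB libraries and 309 to 320 CPM in control libraries. The contractile genes gave small values: Acta2 had an averaged log2 fold change of 0.12 ± 0.14 (SE, adjusted p = 0.903) and Tagln -0.02 ± 0.17 (adjusted p = 0.996). The lowest fitted values beside Fbln2 and Lox belonged to Anpep, at -1.37 ± 0.67 with VIP (adjusted p = 0.929) and -0.79 ± 0.66 with PBS (adjusted p = 0.956), from a mean of only 0.466 CPM.

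Of 23 collagen processing genes, 28 further fibroblast and meningeal genes, 25 further contractile and mural genes and 13 further endothelial genes tested, 0 were called in the averaged ACREB contrast by edgeR without the block, where 0.674% of all genes were called. At an unadjusted p under 0.05 there were 2, 3, 3 and 2, against 9.47% of all genes. With the block, where 3.45% of all genes were called, elastin (Eln) and Notch3 were called lower and the transporter Slco1a4 higher. Microglia markers moved with the virus as well: 12 of 12 had higher fitted values with ACREB, and 9 of 12 were called higher with the block and 0 without it. Their summed level was 1740 to 3457 CPM in ACREB VIP libraries and 1837 to 3297 CPM in ACREB PBS libraries, against 1318 to 2800 CPM in control VIP libraries and 1406 to 2632 CPM in control PBS libraries, and none of the 12 was at 0. Ependymal markers had higher fitted values with ACREB for 5 of 6 tested, and Rsph1 and Ccdc153 were called higher with the block. Among markers of other cells, the block also called the myelin gene Mag and the neuronal tubulin Tubb3 lower and the neuronal gene Stmn2 higher, and edgeR without the block called 0 microglia, ependymal, oligodendrocyte lineage, neuron or astrocyte markers. The part of these markers in the matrix results was not tested.

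The second comparison was VIP against PBS, which asks how an acute neuropeptide signal changed these genes. Pdgfrb was lower with VIP in all 6 numbered pairs (4.71% of all genes), as was the gene of its ligand Pdgfb. With edgeR, 0 of 29 members were called in ACREB (0.0119% of all genes) and 0 of 29 in control virus (0.489% of all genes), and DESeq2 called 0 in both (0.134% and 1.43% of the genes it gave an adjusted p). At an unadjusted p under 0.05, 0 members stood out in ACREB (1.92% of all genes), and in control virus 1 was higher, Rgs5, and 1 lower, Pdgfrb (6.42% of all genes). In the averaged contrast 0 of 29 were called (0.728% of all genes), with 1 at an unadjusted p under 0.05 (6.67% of all genes).

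Pdgfrb is the receptor through which platelet-derived growth factor maintains pericytes (ENSMUSG00000024620, chromosome 18, 61045150 to 61085061). It had 27.5, 27.6 and 21.0 CPM in ACREB VIP libraries against 34.9, 32.8 and 28.0 CPM in ACREB PBS libraries. In control virus it had 26.7, 25.4 and 20.2 CPM in VIP libraries against 34.8, 41.7 and 25.4 CPM in PBS libraries. The VIP libraries lay below the PBS libraries without overlap in ACREB (3.26% of all genes), while in control virus VIP library 1 exceeded PBS library 3 and VIP library 2 equalled it to 3 digits. The log2 fold change was -0.33 ± 0.19 in ACREB (SE, adjusted p = 1.00) and -0.49 ± 0.19 in control virus (adjusted p = 0.618). Averaged over both viruses it was -0.41 ± 0.13 (adjusted p = 0.359). With the replicate number as a block the averaged adjusted p was 0.0169, where 2.25% of all genes were called, and the value in control virus was 0.0520. Within each virus the block called 0 of 29 members, against 0.0776% of all genes in ACREB and 1.63% in control virus. With GC and length offsets added, no member was called in ACREB (0.239% of all genes), Pdgfrb in control virus (3.41%), and Pdgfrb and Cnn1 in the averaged contrast (4.24%). The means were 24.7 ± 3.30 CPM with VIP and 32.9 ± 5.75 CPM with PBS (SD, n = 6 each).

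Pdgfb, the ligand of Pdgfrb and no member of the set, fell with VIP in control virus and over both viruses. It had 57.9, 62.9 and 57.5 CPM in ACREB VIP libraries against 94.8, 81.1 and 70.1 CPM in ACREB PBS libraries, and 47.4, 47.1 and 50.4 CPM in control VIP libraries against 80.2, 89.8 and 69.5 CPM in control PBS libraries. All 6 VIP libraries lay below all 6 PBS libraries, as for 0.447% of all genes. Its log2 fold change was -0.46 ± 0.13 in ACREB (SE, adjusted p = 1.00, and 0.474 with the block), which did not pass, -0.72 ± 0.13 in control virus (adjusted p = 0.0305) and -0.59 ± 0.09 over both viruses (adjusted p = 0.00984). The interaction was 0.26 ± 0.18 (adjusted p = 1.00), so the ACREB and control values were not shown to differ. Markers of other cells were lower with VIP in all 6 numbered pairs too: over both viruses Olig2, of the oligodendrocyte lineage, had -0.57 ± 0.13 (SE, adjusted p = 0.0973, and 0.00348 with the block) and the astrocyte marker Fgfr3 -0.34 ± 0.12 (adjusted p = 0.488, and 0.0299 with the block). Their part in the Pdgfrb and Pdgfb values was not tested.

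Rgs5 had 3.09, 2.84 and 3.72 CPM in ACREB VIP libraries, 2.51, 1.75 and 3.86 CPM in ACREB PBS libraries, 2.81, 3.5 and 3.33 CPM in control VIP libraries, and 2.03, 0.632 and 2.44 CPM in control PBS libraries. In ACREB the groups overlapped, with a log2 fold change of 0.25 ± 0.39 (SE, adjusted p = 1.00). In control virus the VIP libraries lay above the PBS libraries (4.53% of all genes), with a value of 0.91 ± 0.40 (adjusted p = 0.750). Postn, periostin, had the next largest fitted difference in control virus, 0.85 ± 0.46 (adjusted p = 0.782), which rests on control VIP library 2 at 32.2 CPM, while the other 11 libraries had 4.96 to 14.8 CPM. Without that library the value was 0.08. In ACREB the largest were Dcn, at 0.62 ± 0.44, and Anpep, at -0.43 ± 0.73 (adjusted p = 1.00 for both).

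**Figure D3:**
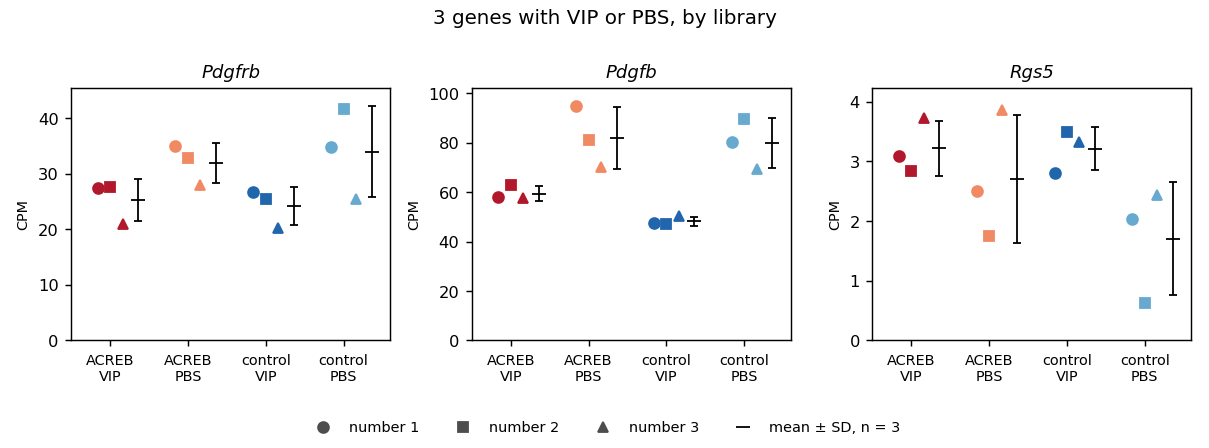
CPM of Pdgfrb, its ligand gene Pdgfb and Rgs5 in each library, by group (ACREB VIP, ACREB PBS, control VIP, control PBS); points are libraries marked by their number and bars are group means with SD (n = 3). For Pdgfrb and Pdgfb each VIP library is lower than the PBS library of its number and virus, and Pdgfrb is 20.2 to 27.6 CPM with VIP and 25.4 to 41.7 CPM with PBS.

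Without GC and length offsets, the contractile members gave no call with VIP. Over both viruses Acta2 had a log2 fold change of -0.13 ± 0.14 (SE, adjusted p = 0.882), Tagln -0.19 ± 0.17 (adjusted p = 0.882) and Cnn1 0.21 ± 0.16 (adjusted p = 0.882). Among the 25 further contractile and mural genes tested, Pdgfb was the 1 called without the block. With the block, serum response factor (Srf), Ccn2 and Lmod1 were also called lower over both viruses, and Mcam higher. The 18 matrix genes had a median log2 fold change of 0.04 in ACREB and -0.07 in control virus, against 0.00 and -0.02 over all genes. Of the 18, Fbn1 was higher with VIP in 6 of 6 pairs (3.66% of all genes), by 0.11 ± 0.12 averaged (SE, adjusted p = 0.882), which is within its error.

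The interaction, the VIP response in ACREB minus the VIP response in control virus, tests whether ACREB altered the response to VIP. EdgeR and DESeq2 called 0 of 29 members, with 0 members at an unadjusted p under 0.05 by edgeR (1.2% of all genes), and both tools called 0 genes in all (0%). For Pdgfrb the interaction was 0.16 ± 0.27 on the log2 scale (SE, adjusted p = 1.00), so that its values of -0.33 in ACREB and -0.49 in control virus were not shown to differ. The largest fitted interactions were -0.66 ± 0.56 for Rgs5 and -0.57 ± 0.94 for Anpep (adjusted p = 1.00 for both).

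By the median share of variance, the replicate number accounted for more of the spread of these genes than virus or treatment. Each number holds 1 library of every group, so that numbers are balanced over virus and treatment. In the fit with the number as a term, 19 of 29 tested members differed between numbers at an adjusted p under 0.05 (15.5% of all genes): 12 of 18 matrix genes, 5 of 7 mural and contractile genes and 2 of 4 endothelial genes. Of the 19, 16 were highest in number 2 and 3 were highest in number 3, namely Lum, Kdr and Flt1. Of the 2596 genes called in all, 1086 were highest in number 2 and 840 in number 3 (6.48% and 5.01% of all genes tested). The median share of variance on the log2 scale was 45.5% for the number, 18.1% for the virus and 2.22% for the treatment over the members, and 34.1%, 5.72% and 6.24% over all genes tested. The number has 2 degrees of freedom in this fit, and virus and treatment 1 each, so the shares are not on equal terms. The virus held more than the number for Lox, Fbn1, Col5a1 (55.6% against 27.2%), Fbln2 (53.9% against 36.5%) and Col1a1 (48.4% against 34.6%). Treatment held more for Pdgfrb (48.5% against 42.6%) and Rgs5 (31.9% against 28.0%). Restricted to the 6 control virus libraries the test called 0 members and 0 genes in all. Restricted to the 6 PBS libraries it still called members, among them Col1a2, Fn1, Myl9 and Kdr. Without any 1 library it called 11 to 19 members. It called 11 without ACREB PBS library 1, with 1374 genes called in all, or without ACREB VIP library 1, with 1178.

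Contractile genes were highest in number 2. Acta2, listed in the order ACREB VIP, ACREB PBS, control VIP, control PBS, had 1894, 1941, 1718 and 1773 CPM in number 1, 2571, 2873, 1952 and 2763 CPM in number 2, and 2087, 2029, 2085 and 2097 CPM in number 3 (adjusted p = 0.0164). For Acta2 and Myl9 the 4 number 1 libraries lay below the other 8, as for 2.5% of all genes. Tagln had 1531 ± 113 CPM in number 1, 2298 ± 355 CPM in number 2 and 1632 ± 109 CPM in number 3 (SD, n = 4 each; adjusted p = 0.00365). Myl9, in the same order of groups, had 238, 248, 223 and 245 CPM in number 1, 348, 381, 302 and 436 CPM in number 2, and 248, 254, 262 and 273 CPM in number 3 (adjusted p = 0.00192). For Tagln, Myl9, Fn1 and Mmp2 the 4 number 2 libraries lay above the other 8, as for 4.16% of all genes. Cnn1 had 282 ± 65.1, 389 ± 61.7 and 290 ± 37.3 CPM in numbers 1, 2 and 3 (SD, n = 4 each; adjusted p = 0.0320).

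Both collagen IV chains, Col1a2 and Col3a1 were lowest in number 3, while Col1a1 was lowest in number 1. Col4a1, in the order ACREB VIP, ACREB PBS, control VIP, control PBS, had 358, 346, 378 and 368 CPM in number 1, 370, 395, 361 and 476 CPM in number 2, and 276, 276, 289 and 281 CPM in number 3 (adjusted p = 0.00599). Col1a2 had 49.3, 47.7, 60.1 and 62.0 CPM in number 1, 55.6, 48.4, 78.7 and 95.3 CPM in number 2, and 31.9, 33.3, 45.2 and 39.1 CPM in number 3 (adjusted p = 0.00237). For Col1a2, Col3a1, Col4a1 and Col4a2 the 4 number 3 libraries lay below the other 8, as for 1.71% of all genes. Fn1 averaged 1648 ± 282 CPM in number 1, 2511 ± 458 CPM in number 2 and 1539 ± 330 CPM in number 3 (SD, n = 4 each; adjusted p = 0.00180).

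The 2 chains of collagen I did not keep 1 ratio across numbers. Per kilobase, Col1a1 over Col1a2 was 1.28 to 1.87 in number 1, 1.75 to 1.89 in number 2 and 2.62 to 3.17 in number 3. The ratio of Col4a1 to Col4a2, which are transcribed from opposite strands of 1 promoter region, stayed between 2.66 and 3.01 in all 12 libraries. Col6a1 over Col6a2 was 6.05 to 8.33. These values describe the libraries and were not tested.

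Kdr had the smallest adjusted p of all members in the number test, 0.000609. In the order ACREB VIP, ACREB PBS, control VIP, control PBS, it had 21.2, 26.3, 19.7 and 26.2 CPM in number 1, 18.4, 17.1, 15.5 and 13.5 CPM in number 2, and 34.1, 39.3, 34.8 and 43.3 CPM in number 3. The 3 numbers did not overlap at all, with number 2 lowest and number 3 highest, and the number held 90.6% of the variance. Number 3 lay above the other 8 libraries for Kdr and Lum (2.34% of all genes), and number 2 below them for Kdr (2.6% of all genes). Kdr thus ran opposite to the contractile genes between numbers 1 and 2. Flt1 had 8.21 ± 1.89, 10.2 ± 2.10 and 14.2 ± 3.53 CPM in numbers 1, 2 and 3 (SD, n = 4 each; adjusted p = 0.00183), and the ratio of Kdr to Flt1 per kilobase varied from 2.14 to 5.95. Vwf had 5.97 ± 0.355, 8.45 ± 1.44 and 6.44 ± 0.850 CPM (adjusted p = 0.0745), and so did not pass. The 65 counts of Pecam1 gave means of 0.105, 0.324 and 0.458 CPM in numbers 1, 2 and 3, near the limit of 3 counts and not tested.

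**Figure D4:**
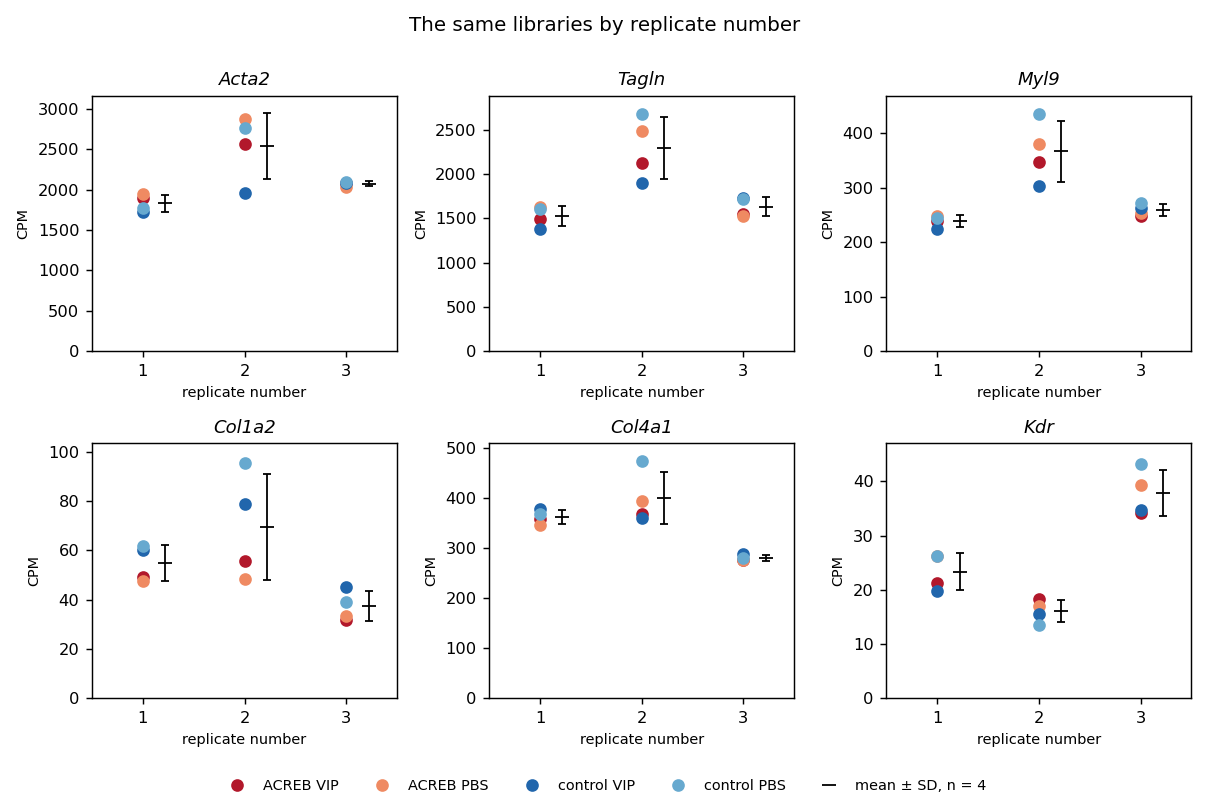
CPM of Acta2, Tagln, Myl9, Col1a2, Col4a1 and Kdr by replicate number (1, 2 and 3), with a point for each of the 4 libraries of a number coloured by group and bars for mean and SD. Number 2 is highest for the contractile genes, number 3 is lowest for Col1a2 and Col4a1, and Kdr is highest in number 3 at 34.1 to 43.3 CPM.

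The remaining members called by number were Col1a1, Col3a1, Col4a2, Lum, Fbln2, Fbn1, Loxl1, Mmp2, Postn and Pdgfrb, with adjusted p from 0.00832 to 0.0447. Pdgfrb averaged 31.0 ± 4.49 CPM in number 1, 31.9 ± 7.24 CPM in number 2 and 23.6 ± 3.69 CPM in number 3 (SD, n = 4 each; adjusted p = 0.0199), while treatment held 48.5% of its variance. Lox stood at the other end, with 15 ± 6.30, 14.4 ± 7.42 and 14.6 ± 2.94 CPM in numbers 1, 2 and 3 (adjusted p = 0.841) and 1.07% of its variance tied to the number.

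**Figure D5:**
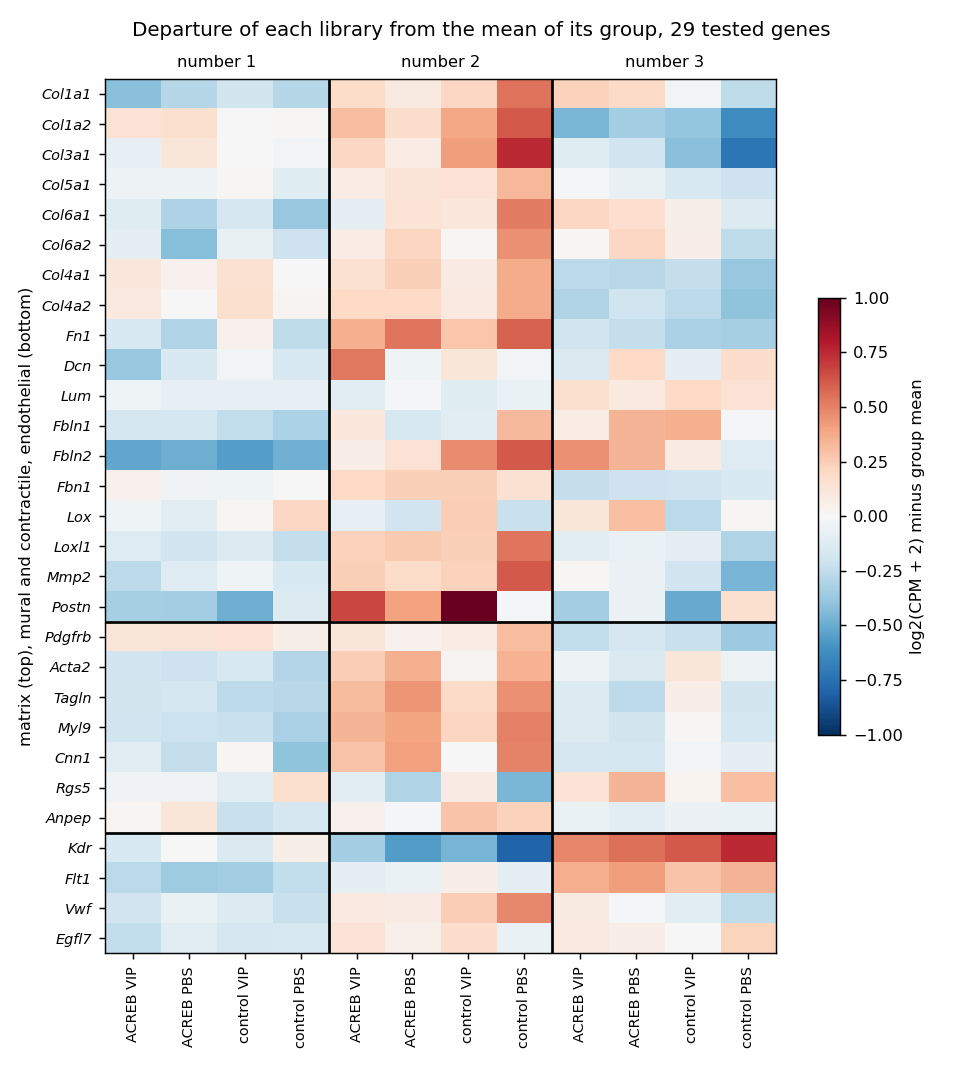
Log2(CPM + 2) of the 29 tested members in each library minus the mean of the library's group, with libraries ordered by replicate number and genes by list (values past the ends of the colour scale take its end colour). Most matrix and contractile genes are above 0 in number 2 libraries, with control PBS library 2 the most extreme, and Kdr and Flt1 are above 0 in number 3 libraries.

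The number was called for 15.5% of all genes, that is 2596 genes, 1086 of them highest in number 2 (6.48% of all genes). It was called for 9 of 23 collagen processing genes, 8 of them highest in number 2, for 13 of 28 further fibroblast and meningeal genes, 10 of them highest in number 2, and for 14 of 25 further contractile and mural genes, 12 of them highest in number 2. Of 13 further endothelial genes 5 were called, 3 of them highest in number 3, as were 840 of the 2596 genes called (5.01% of all genes). Markers of other cells also moved with the number: 12 of 12 microglia markers were called and highest in number 3, with summed levels of 1318 to 1837 CPM in number 1, 1382 to 2724 CPM in number 2 and 2632 to 3457 CPM in number 3. Ependymal markers were called in 5 of 6, with summed levels of 504 to 567, 373 to 468 and 484 to 522 CPM in numbers 1, 2 and 3, astrocyte markers in 8 of 12, oligodendrocyte lineage markers in 6 of 10 and neuron markers in 2 of 9. Their part in the result was not tested. With both library 2 samples of the PBS groups left out, the number test called 19 of 29 members.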

How the data were processed

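RNA was measured by strand-specific polyA sequencing (150 bp paired reads) in 12 libraries, 3 in each of 4 groups taken from the labels. What the authors deposited is a table of raw counts, neither normalized nor pooled, with Ensembl genes in rows and the 12 libraries in columns. The submitters' processing notes list edgeR, R 3.6.1, HTSeq 0.11.2, STAR 2.7.1a and Trimmomatic 0.39, and name the mouse builds GRCm38 and mm10. Neither the annotation release nor the counter's strand setting was found in the sources used here, and a wrong setting would lower or merge counts of genes with an antisense partner. A GENCODE annotation of GRCm38 gave a symbol for 55480 gene identifiers and none for 93. The table had 0 rows that name no gene.

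Counts were tested in R 4.3.3 with edgeR 4.0.16 and limma 3.58.1: 16761 genes passed filterByExpr, TMM factors set the library sizes, and a quasi-likelihood fit of the 4 group means used every library (8 residual degrees of freedom, or 6 with the replicate number as a block). Benjamini-Hochberg adjustment ran over the 16761 genes, and 0.05 was the threshold. The SE of a log2 fold change is its size divided by the square root of F. The scripts were tested on simulated data. Shares of variance and the heat map used log2(CPM + 2). Total counts of 16571398 to 20529238 per library make 3 counts the practical limit of detection, and such limits cover counting error only.

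The members and all lists were chosen with earlier results of these data known. The rule named Col1a1, Pdgfrb and Pecam1, every member past a threshold, the 3 most abundant members of each list and the 2 largest fold changes of each contrast. Other genes in the text were chosen after their values were seen. Contrasts averaged over treatments or viruses were added after seeing the data.

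Alternatives were DESeq2 1.42.0, RLE scaling, no filter, a mean CPM of at least 1, fits of only the libraries compared, offsets for GC content and length, a replicate block, and leaving out libraries. Same-numbered libraries deviated together from their group means: correlations across genes were 0.132 to 0.679 on edgeR's log2 CPM, over 0.1 in 18 of 18 pairs, and 0.0864 to 0.833 on log2(CPM + 2), over 0.1 in 17 of 18. All 12 libraries correlated best with a library of the same number. Pairing by number was adopted on this basis, from the data and not the labels, and blocked values are given where they change a call.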

Additional observations from a re-analysis of the deposited data

How the results depend on the processing

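DESeq2, RLE scaling, the filters, offsets for GC content and gene length, a replicate block, fits of fewer libraries and leaving out each library gave 936 values for the 46 contrasts of named genes, of which 907 kept their direction, 10 lost a call and 32 gained one. The count of members called moved as follows, with the number of all genes called in brackets. For ACREB with VIP the reported fit called 0 (9 genes). Lox was the 1 called with DESeq2 (122 genes), no filter (18), the offsets (49) and both PBS libraries numbered 2 left out (47). Fbn1 was the 1 called with the block (61), and block and offsets called 7 members (586). Leaving out 1 library called 0 to 1, with Lox called without control PBS library 2 (41). For ACREB with PBS, 0 as reported (6 genes), it was 1 with DESeq2 (94) and 1 with the replicate block (37), Fbn1 in both. With the block plus GC and length offsets it was 9 (307). For VIP in control virus, 0 as reported (82 genes), it was 1 with block and offsets (571). Averaged over both viruses VIP called 0 (122 genes), then 1 with the block (377) and 2 with block and offsets (711). Averaged over treatments ACREB called 2 (113 genes), then 4 with DESeq2 (423), 9 with the block (578) and 11 with block and offsets (1645). Leaving out 1 library it called 0 to 2, with 0 called without ACREB PBS library 1 (47) or ACREB VIP library 2 (38). The replicate number called 19 (2596 genes), then 0 in the 6 control virus libraries alone (0). Leaving out 1 library it called 11 to 19, with 11 called without ACREB PBS library 1 (1374) or ACREB VIP library 1 (1178). Col1a2, Fn1, Myl9 and Kdr were among the members called by number in 19 of 20 alternatives, the 6 PBS libraries alone included. The replicate block alone changed no other call of a member. The cause was not tested.

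Signs changed for 16 contrasts of named genes, none of them called in the reported fit. For ACREB with PBS, Pdgfrb was -0.09 as reported, 0.0021 with the offsets, 0.012 with block and offsets, 0.069 without both PBS libraries numbered 2, and -0.26 to 0.089 leaving out 1 library; with VIP it was -0.040 to 0.19. Leaving out 1 library, the VIP effect in ACREB spanned -0.12 to 0.20 for Col1a1, -0.48 to 0.18 for Kdr, -0.74 to 0.085 for Anpep, -0.53 to 0.30 for Egfl7, -0.055 to 0.94 for Dcn and -0.14 to 0.68 for Postn. In control virus it spanned -0.14 to 0.34 for Col1a1 and -0.65 to 0.23 for Kdr. The ACREB effect spanned -0.24 to 0.48 for Kdr with VIP and -0.68 to 0.080 for Egfl7 with PBS. The interaction spanned -0.36 to 0.16 for Flt1, -0.0095 to 1.02 for Egfl7, -0.99 to 0.31 for Postn and -1.18 to 0.18 for Anpep.

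For the 10 members that failed the filter, at most 73 counts in all 12 libraries allow no comparison.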
